A study of Mus musculus with 31 samples.

Results

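The CC chemokine ligands are small secreted proteins, named for the adjacent cysteines near their amino terminus, that attract leukocytes by binding CC chemokine receptors. The 8 genes described here are Ccl2, Ccl3, Ccl4, Ccl5, Ccl6, Ccl7, Ccl9 and Ccl12. They were chosen by gene name in the microglial count table and by the same gene identifiers in the hippocampal table, and make up 8 of the 54858 gene identifiers in the series. All 8 were detected in microglia and all 8 had reads in at least 1 hippocampus.

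Ccl2, Ccl7 and Ccl12 encode ligands of Ccr2, the receptor through which monocytes leave the marrow and enter inflamed tissue. Ccl3, Ccl4 and Ccl5 encode attractants of macrophages and T cells, and Ccl3 and Ccl5 act through Ccr1, a receptor of myeloid cells. Ccl6 and Ccl9 encode ligands of Ccr1 that many myeloid cells produce without a stimulus. In the brain microglia and macrophages are main sources of these proteins. Ccl5 is widely used as a readout of interferon regulatory factors, and several of the others are classic targets of NF-kB.

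Primary microglia came from cortices of newborn pups (days 1 to 3), kept as mixed glial culture for 7 to 10 days. GM-CSF was added once bright, round cells appeared, and later the microglia were collected. They carried either an intact cGAS gene (Cgas+/+) or a germline deletion of it (Cgas-/-), which removes the enzyme that senses cytosolic double-stranded DNA and activates STING. Cells of each genotype received vehicle, 2 µg/ml tau fibrils of the 0N4R isoform, or 1 µg/ml herring testis DNA (HT-DNA), a ligand of cGAS, and RNA was taken 6 h later. Each of the 6 groups had 3 libraries. The study's legends call the microglial samples biologically independent, but whether each was a separate preparation of pups is not given in the sources used here. Genotype and culture preparation cannot be told apart. In the other experiment, hippocampi were taken from 7 non-transgenic (Ntg) mice (4 males, 3 females) and 6 P301S mice (3 of each sex) aged 8 to 9 months. P301S mice carry human MAPT with the P301S mutation under the mouse prion promoter, and the Cgas genotype of both hippocampal groups is not stated.

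Total counts per library ranged from 17037459 to 25174764 in microglia and from 25953296 to 35779977 in hippocampi. Levels are given as CPM (read counts scaled to the TMM-adjusted library size), and 3 counts correspond to 0.117 to 0.167 CPM in microglia and 0.0860 to 0.114 CPM in hippocampi. Cgas averaged 23.2, 34.0 and 41.01 CPM in Cgas+/+ cells with vehicle, tau and HT-DNA, against 4.93, 7.11 and 3.96 CPM in Cgas-/- cells, where 71 to 180 reads per library were still counted on the gene. Mapt, which checks the transgene, had 572 ± 46.9 CPM in Ntg (SD, n = 7) and 997 ± 88.5 CPM in P301S mice (SD, n = 6), with no overlap. All 6 general microglia and macrophage markers were detected in every microglial group. Of the 7 homeostatic markers, 6 exceeded 3 counts in a library of each vehicle group, and Siglech had 0 counts in both. The 7 summed to 2122 to 2260 CPM in Cgas+/+ and 1520 to 1659 CPM in Cgas-/- vehicle libraries.

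In GRCm38 the 8 genes lie in 2 clusters on chromosome 11. Ccl2 (chr11:82035571-82037453), Ccl7 (chr11:82045712-82047525) and Ccl12 (chr11:82101845-82103400) lie on the plus strand within 67.8 kb. The second cluster starts 1422 kb further on, spans 139 kb, and holds Ccl5 (chr11:83525778-83530518), Ccl9 (chr11:83572919-83578636), Ccl6 (chr11:83587882-83593087) and Ccl3 (chr11:83647844-83649355) on the minus strand and Ccl4 (chr11:83662584-83664683) on the plus strand. Ccl9 and Ccl6 are neighbours, separated by 9245 bases. Gm17268 overlaps Ccl2 on the other strand and had 0 counts in every library. E230016K23Rik overlaps Ccl6 on the other strand and had 0 to 15 counts per microglial library and 0 to 9 per hippocampus. Reads shared between similar ligands could be split between them, which was not tested.

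Promoter sequences from RefSeq (GRCm38.p6) were at hand for 4 of the 8 genes, and are shown because Ccl6 and Ccl9 are neighbours with different responses below, while Ccl3 and Ccl12 represent the induced ligands of each cluster. Each line gives the 250 bases before the transcript start, 5′ to 3′ on the gene's strand, with motif matches in capitals. The windows are chr11:83649379-83649628 for Ccl3, chr11:83593088-83593337 for Ccl6 and chr11:83578637-83578886 for Ccl9, all on the minus strand, and chr11:82101595-82101844 on the plus strand for Ccl12.
Ccl3: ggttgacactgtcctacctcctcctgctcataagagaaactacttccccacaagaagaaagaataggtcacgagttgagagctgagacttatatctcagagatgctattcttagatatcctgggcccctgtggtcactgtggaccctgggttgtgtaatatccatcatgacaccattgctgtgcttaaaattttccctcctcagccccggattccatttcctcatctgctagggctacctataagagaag
Ccl6: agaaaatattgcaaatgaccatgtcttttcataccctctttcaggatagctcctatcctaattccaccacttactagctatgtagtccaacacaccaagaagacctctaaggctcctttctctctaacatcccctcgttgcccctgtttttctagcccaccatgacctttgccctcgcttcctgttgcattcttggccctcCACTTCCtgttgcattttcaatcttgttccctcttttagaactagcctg
Ccl9: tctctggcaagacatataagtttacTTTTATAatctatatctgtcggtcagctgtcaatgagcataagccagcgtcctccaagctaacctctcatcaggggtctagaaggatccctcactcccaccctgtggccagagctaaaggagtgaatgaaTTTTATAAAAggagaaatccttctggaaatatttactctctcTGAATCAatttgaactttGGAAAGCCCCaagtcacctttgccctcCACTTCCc
Ccl12: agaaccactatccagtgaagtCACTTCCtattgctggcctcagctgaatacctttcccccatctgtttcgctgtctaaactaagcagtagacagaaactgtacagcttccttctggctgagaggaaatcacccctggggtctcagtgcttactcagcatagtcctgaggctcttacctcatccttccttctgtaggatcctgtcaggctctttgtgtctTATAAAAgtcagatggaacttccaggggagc
Motifs were sought on both strands, with overlapping matches allowed, and their shares are of 32851 promoter windows of the same length. The Ccl9 window held an NF-kB motif match (GGAAAGCCCC, from -35 to -26 relative to the start), a motif found in 7.25% of windows. It also held the AP-1 motif TGANTCA (from -53 to -47, 6.75% of windows), the ETS motif GGAAGTG (from -8 to -2, 8.55%) and the TATA box letters TATAAAA at 3 places (4.98%), of which those from -95 to -89 and from -92 to -86 overlap. The Ccl6 window held the ETS motif alone, from -49 to -43. The Ccl12 window held the ETS motif from -229 to -223 and a TATA box from -31 to -25, and the Ccl3 window held none of these letters. The interferon-stimulated response element, GAAA repeated after any 2 bases, is present in 2.98% of windows and had no match in the 4 windows.

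In Cgas+/+ microglia, 6 of the 8 ligands rose under tau fibrils and the same 6 rose under HT-DNA. A gene was called when its edgeR adjusted p was under 0.05 and its log2 fold change beyond 1 in microglia, and of the 13675 genes tested 2.89% were called higher and 0.527% lower under tau, and 5.29% higher and 2.79% lower under HT-DNA. The median log2 fold change of the 8 ligands was 1.93 under tau and 2.40 under HT-DNA, against -0.01 and -0.03 over all genes tested. Ccl2, Ccl3, Ccl4, Ccl7 and Ccl12 had higher levels with HT-DNA than with tau, whereas Ccl5 was higher with tau. Ccl6 did not pass the test in either comparison. Both comparisons share the 3 vehicle libraries.

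**Figure D1:**
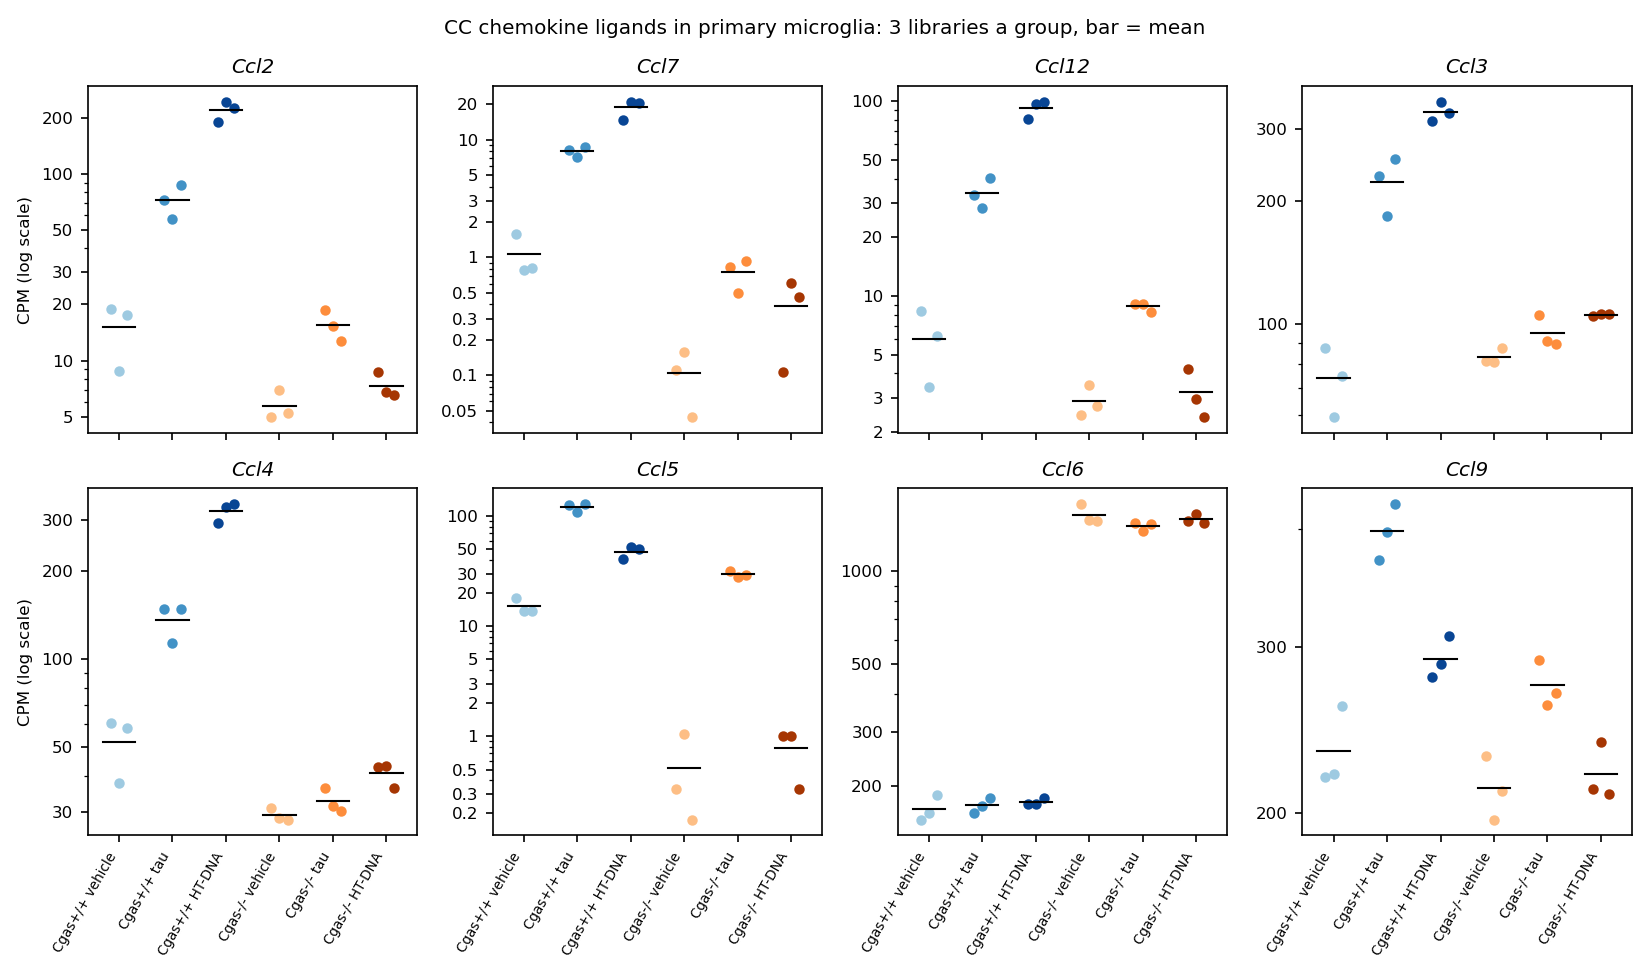
Levels of the 8 ligands in 18 microglial libraries, in CPM on a log axis, with 1 panel per gene. Points are libraries and bars are group means (n = 3 per group). Ccl2, Ccl3, Ccl4, Ccl5, Ccl7, Ccl9 and Ccl12 are higher in every treated Cgas+/+ library than in the Cgas+/+ vehicle libraries. The share of all genes separated in this way was not computed. Ccl6 is at 1351 to 1660.4 CPM in all 9 Cgas-/- libraries against 155 to 186 CPM in all 9 Cgas+/+ libraries.

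Among the Ccr2 ligands, Ccl2, the main monocyte attractant of the family, had 18.9, 8.78 and 17.5 CPM in the Cgas+/+ vehicle libraries, 72.2, 57.6 and 87.5 CPM with tau, and 190.2, 244 and 226 CPM with HT-DNA. The 3 groups were separate, with vehicle replicate 2 lowest. Ccl2 rose by a log2 fold change of 2.28 ± 0.17 (SE) under tau (edgeR adjusted p = 1.46e-11) and 3.88 ± 0.16 under HT-DNA (edgeR adjusted p = 3.66e-17). Ccl12, a mouse gene close to Ccl2 in function, had 8.33, 3.42 and 6.21 CPM with vehicle, 32.9, 28.3 and 40.0 CPM with tau, and 80.8, 96.8 and 99.0 CPM with HT-DNA. It followed the same order of groups as Ccl2, again with no overlap. Its log2 fold changes were 2.50 ± 0.17 under tau and 3.95 ± 0.16 under HT-DNA (edgeR adjusted p = 3.24e-12 and 2.20e-17).

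Ccl7, which attracts monocytes and other myeloid cells, was sparse, with 36, 18 and 15 counts in the Cgas+/+ vehicle libraries. This was 1.60, 0.779 and 0.810 CPM, against 8.24, 7.09 and 8.66 CPM with tau and 14.7, 20.9 and 20.6 CPM with HT-DNA. Every treated library was above every vehicle library, and every HT-DNA library above every tau library. The log2 fold change was 2.89 ± 0.25 under tau (edgeR adjusted p = 2.33e-10) and 4.12 ± 0.23 under HT-DNA (edgeR adjusted p = 1.28e-14).

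Ccl3, a macrophage inflammatory protein, had 87.4, 59.4 and 74.8 CPM with vehicle, 231, 184 and 254 CPM with tau, and 313, 349 and 328 CPM with HT-DNA in Cgas+/+ cells. Its groups did not overlap, and its log2 fold change was 1.59 ± 0.10 under tau and 2.16 ± 0.10 under HT-DNA (edgeR adjusted p = 3.48e-13 and 1.29e-16). Ccl4, its neighbour in the cluster and also a macrophage inflammatory protein, had 60.6, 37.6 and 58.3 CPM with vehicle, 149, 114 and 148 CPM with tau, and 293, 333 and 341 CPM with HT-DNA. The HT-DNA libraries were all above the tau libraries, with means of 322 and 137 CPM. Ccl4 rose by 1.39 ± 0.11 on the log2 scale under tau and 2.63 ± 0.11 under HT-DNA (edgeR adjusted p = 9.25e-11 and 5.70e-17).

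Ccl5, a T-cell and monocyte attractant, had the opposite order of treatments. Its levels were 17.9, 13.9 and 13.8 CPM with vehicle, 127, 109.8 and 129 CPM with tau, and 40.8, 51.9 and 49.9 CPM with HT-DNA. All tau libraries were above all HT-DNA libraries, which were all above the vehicle libraries. The log2 fold change was 2.997 ± 0.114 under tau (edgeR adjusted p = 8.99e-17), an 8.02-fold difference in mean CPM, and 1.64 ± 0.12 under HT-DNA (edgeR adjusted p = 2.91e-12), a 3.13-fold difference.

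Ccl9 and Ccl6, the neighbours in the second cluster, were below the size limit or did not pass in Cgas+/+ cells. Ccl9 had 218, 220.0 and 259 CPM with vehicle, 371, 397 and 425 CPM with tau, and 279, 287 and 308 CPM with HT-DNA. Its groups did not overlap, but its log2 fold changes of 0.78 ± 0.07 under tau and 0.33 ± 0.07 under HT-DNA (edgeR adjusted p = 1.98e-10 and 0.000159) were below the size limit for a call. Ccl6 had 155, 163 and 186 CPM with vehicle, 163, 172 and 183 CPM with tau, and 174 to 183 CPM with HT-DNA. These groups overlapped, and its log2 fold changes were 0.04 (95% interval -0.08 to 0.16) and 0.07 (95% interval -0.04 to 0.19). Without a size limit Ccl9 would be counted in both comparisons, and the count of 6 ligands was 6 without each library in turn.

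Tau was next compared with HT-DNA within Cgas+/+ cells, where 1.78% of genes were called higher with tau and 1.49% lower. Of the 8 ligands, 1 was higher with tau and 4 were lower. Ccl5 was higher by 1.36 ± 0.10 on the log2 scale (edgeR adjusted p = 1.74e-11). Ccl2, Ccl12, Ccl4 and Ccl7 were lower, with log2 differences of -1.61, -1.45, -1.24 and -1.23 (edgeR adjusted p = 2.79e-10, 7.13e-10, 2.37e-10 and 2.92e-06). Ccl3 differed by -0.57 and Ccl9 by 0.45 (edgeR adjusted p = 1.32e-05 and 3.12e-06), both below the size limit, and Ccl6 differed by -0.04 (95% interval -0.15 to 0.08). The doses of tau and HT-DNA are of different substances and are not matched.

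**Figure D2:**
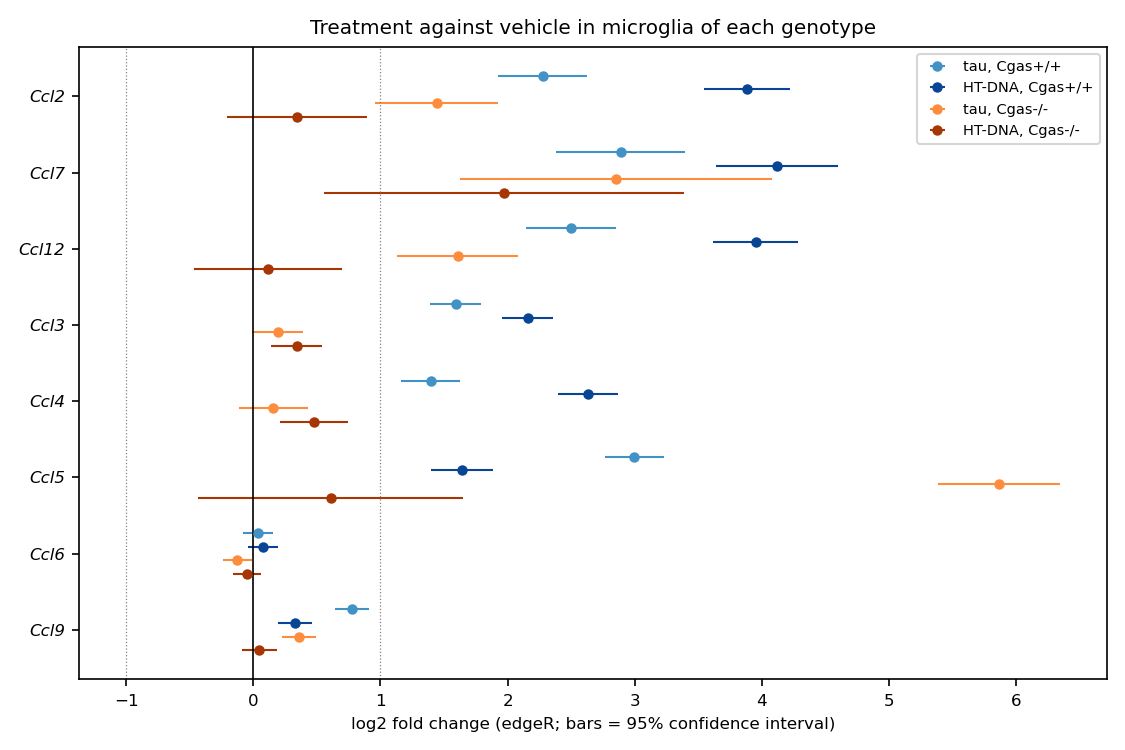
Log2 fold change of each ligand under tau and under HT-DNA against vehicle, in Cgas+/+ and in Cgas-/- microglia, with 95% intervals from the edgeR fit (n = 3 libraries per group). In Cgas-/- cells Ccl5 has the largest change under tau, at 5.87, and no ligand passed under HT-DNA.

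In Cgas-/- microglia, 4 of the 8 ligands rose under tau (Ccl2, Ccl5, Ccl7 and Ccl12), where 2.46% of genes were called higher and 0.278% lower. Their median log2 fold change over all 8 was 0.90, against 0.01 over all genes. Ccl5 had 6, 20 and 4 counts in the vehicle libraries, or 0.335, 1.04 and 0.176 CPM, and 32.0, 28.0 and 28.95 CPM with tau. Vehicle replicates 1 and 3 were near the level of 3 counts and replicate 2 was above it, and all 3 tau libraries were far above the 3 vehicle libraries. Ccl5 rose by 5.87 ± 0.23 on the log2 scale (edgeR adjusted p = 2.75e-17), a ratio of 57.3 in mean CPM. Without Cgas-/- vehicle replicate 2, which held most of the Ccl5 reads of its group, the change was 6.88. The tau-treated Cgas-/- cells, at a mean of 29.7 CPM, were above the Cgas+/+ vehicle cells at 15.2 CPM and below the tau-treated Cgas+/+ cells at 122 CPM.

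The Ccr2 ligands of Cgas-/- cells also rose under tau, from lower levels. Ccl2 had 4.97, 6.98 and 5.23 CPM with vehicle and 18.7, 15.4 and 12.8 CPM with tau, a log2 fold change of 1.44 ± 0.23 (edgeR adjusted p = 2.66e-05). Ccl12 had 2.46, 3.49 and 2.73 CPM with vehicle and 9.13, 9.09 and 8.29 CPM with tau, a log2 fold change of 1.61 ± 0.23 (edgeR adjusted p = 4.15e-06). For both genes the tau libraries were above all vehicle libraries, and the Ccl2 libraries with tau overlapped the Cgas+/+ vehicle libraries. Ccl7 had 2, 3 and 1 counts with vehicle and 19, 12 and 24 counts with tau, a ratio of summed counts per depth of 7.61 (95% counting interval 3.28 to 21.6), and passed the call (edgeR adjusted p = 0.000725). Its intervals cover counting error only.

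Ccl3 and Ccl4 did not pass under tau in Cgas-/- cells. Ccl3 had 81.4, 80.9 and 87.6 CPM with vehicle and 105, 91.1 and 89.6 CPM with tau, which is a log2 fold change of 0.19 (95% interval -0.01 to 0.39, edgeR adjusted p = 0.211). Ccl4 had 31.0, 28.6 and 28.3 CPM with vehicle and 36.3, 31.4 and 30.3 CPM with tau, and its log2 fold change was 0.16 (95% interval -0.11 to 0.43, edgeR adjusted p = 0.503). The groups overlapped for Ccl4 and were narrowly separate for Ccl3. Ccl9 had 230.0, 197 and 211 CPM with vehicle and 290.3, 260.2 and 268 CPM with tau, a log2 fold change of 0.36 (edgeR adjusted p = 0.000140) below the size limit. Ccl6 had 1660.4, 1468 and 1467 CPM with vehicle and 1437, 1351 and 1426 CPM with tau, and its log2 fold change of -0.12 had an edgeR adjusted p of 0.136.

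HT-DNA gave no call among the 8 ligands in Cgas-/- cells, where 0.0146% of all genes were called higher and 0.00731% lower. By edgeR, 3 of the 8 (Ccl3, Ccl4 and Ccl7) had an unadjusted p under 0.05, and DESeq2 called 0. The share of all genes at that unadjusted threshold was not computed, and the shares above are for calls. Ccl2 had 8.74, 6.78 and 6.52 CPM and Ccl12 had 4.24, 2.97 and 2.38 CPM with HT-DNA, both overlapping their vehicle libraries. Their log2 fold changes were 0.34 (95% interval -0.21 to 0.90) and 0.11 (95% interval -0.47 to 0.69), intervals that lie below the changes of the same genes in Cgas+/+ cells. Ccl3 had 105, 106 and 106 CPM and Ccl4 had 42.8, 43.3 and 36.3 CPM, above all vehicle libraries, with log2 fold changes of 0.34 and 0.48 (edgeR adjusted p = 0.0933 and 0.0709). Ccl5 had 19, 25 and 8 counts and overlapped its vehicle libraries, with a log2 fold change of 0.61 (95% interval -0.43 to 1.65), and Ccl7 had 2, 15 and 11 counts, a ratio of 4.12 (95% counting interval 1.68 to 12.2, edgeR adjusted p = 0.201). Ccl9 at 212, 238 and 209.7 CPM and Ccl6 at 1460, 1543 and 1439 CPM both overlapped vehicle.

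The difference between genotypes in the response itself was tested as an interaction, in which a negative value means a smaller log2 response in Cgas-/- cells and an adjusted p under 0.05 was the call. For HT-DNA, 16.6% of all genes had a called negative interaction and 17.4% a positive one, and of the 8 ligands 5 were negative and 0 positive. Ccl12, Ccl2, Ccl4, Ccl3 and Ccl9 had interactions of -3.84, -3.54, -2.16, -1.82 and -0.28 (edgeR adjusted p = 8.62e-10, 1.66e-09, 7.61e-11, 2.71e-11 and 0.0220). The call of Ccl9 was lost without any 1 of 5 libraries (Cgas+/+ vehicle replicate 1 or 2, Cgas+/+ HT-DNA replicate 3, Cgas-/- vehicle replicate 1 or Cgas-/- HT-DNA replicate 3), with edgeR adjusted p up to 0.0928. Ccl5 (-1.03, edgeR adjusted p = 0.161) and Ccl7 (-2.15, edgeR adjusted p = 0.0965), both at few counts in Cgas-/- cells, did not pass, but passed with DESeq2. Ccl5 also passed without a filter on low counts and without Cgas-/- vehicle replicate 3 (-1.51), was -0.02 without Cgas-/- vehicle replicate 2, and Ccl7 passed without Cgas+/+ vehicle replicate 1.

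For tau, 3.31% of genes had a called negative interaction and 3.61% a positive one, and of the 8 ligands 3 were negative and 1 positive. Ccl3, Ccl4 and Ccl9 had interactions of -1.40, -1.24 and -0.41 (edgeR adjusted p = 5.71e-08, 2.36e-05 and 0.00512). Ccl5 had a positive interaction of 2.87 ± 0.34 (edgeR adjusted p = 1.32e-06), and it was 3.88 without Cgas-/- vehicle replicate 2. On the CPM scale its increase over the vehicle mean was the smaller one in Cgas-/- cells, from 0.518 to 29.7 CPM, against 15.2 to 122 CPM in Cgas+/+ cells. Ccl2 and Ccl12 had interactions of -0.83 (95% interval -1.46 to -0.21) and -0.89 (95% interval -1.52 to -0.25) that did not pass (edgeR adjusted p = 0.104 and 0.0845). Both passed without a filter on low counts and without Cgas+/+ vehicle replicate 1 (-1.05 and -1.23) or Cgas+/+ tau replicate 2 (-0.98 and -1.005). Ccl7 had -0.04 with an interval of -2.21 to 2.13, which does not show a difference. The width of that interval is itself uncertain. Its standard error was 1.06 here, 0.689 with DESeq2 and 0.231 without Cgas+/+ tau replicate 3. Ccl6 had interactions of -0.16 with tau and -0.12 with HT-DNA (edgeR adjusted p = 0.250 and 0.247), which passed only without Cgas+/+ vehicle replicate 3 (-0.24 and -0.20).

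**Figure D3:**
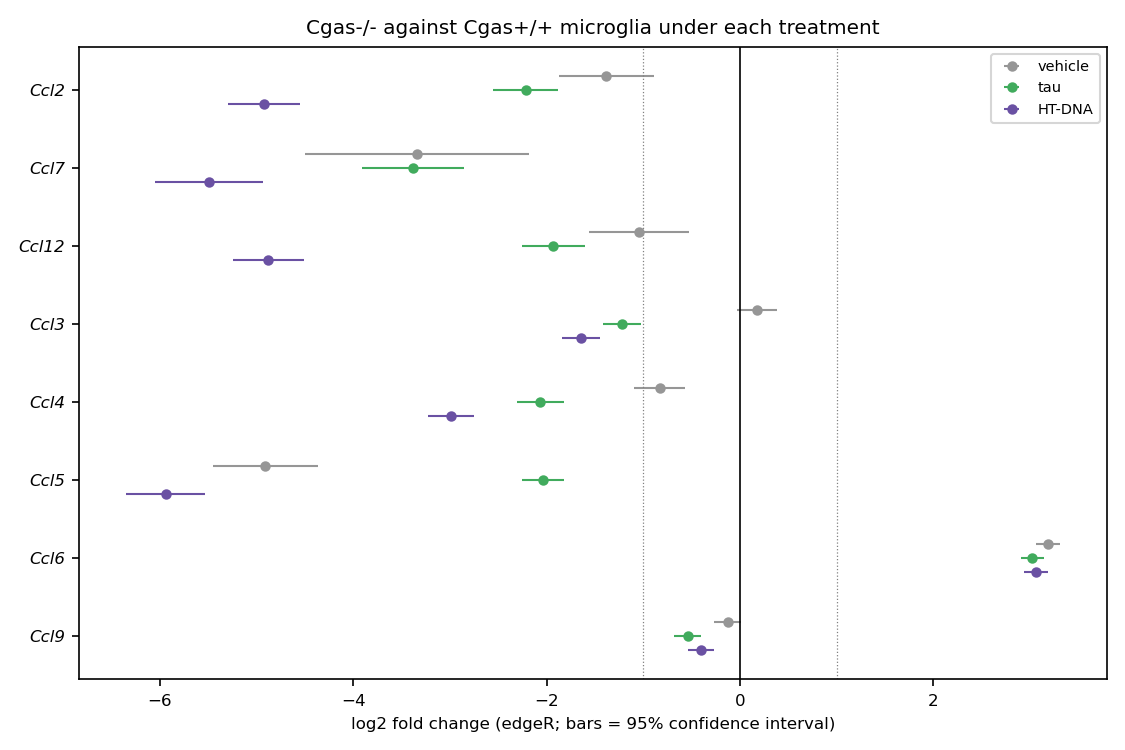
Log2 difference of Cgas-/- from Cgas+/+ microglia for each ligand, with vehicle, tau and HT-DNA, and 95% intervals from the edgeR fit (n = 3 libraries per group). Ccl6 lies at 3.02 to 3.19 in all 3 conditions, while Ccl2, Ccl4, Ccl5, Ccl7 and Ccl12 lie below 0 in all 3.

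Cgas-/- cells also differed from Cgas+/+ cells without a treatment. With vehicle, 1 ligand was higher and 4 were lower, where 2.63% of genes were called higher and 7.35% lower. Ccl6 was 9.10 times higher, at 1532 ± 111 against 168 ± 16.0 CPM (SD, n = 3 each), a log2 difference of 3.19 ± 0.06 (edgeR adjusted p = 2.09e-24). Ccl5 was lower by 29.3 times, at 0.518 ± 0.461 against 15.2 ± 2.31 CPM (SD, n = 3 each; log2 difference -4.91, edgeR adjusted p = 5.39e-15, and -5.92 without Cgas-/- vehicle replicate 2). Ccl2 had 5.73 ± 1.10 against 15.1 ± 5.49 CPM (SD, n = 3 each), a log2 difference of -1.38 ± 0.24 (edgeR adjusted p = 1.92e-05). Ccl7 had 6 counts summed over the Cgas-/- libraries and 69 over the Cgas+/+ libraries, a ratio of 10.7 (95% counting interval 4.68 to 30.2, edgeR adjusted p = 1.40e-05).

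Ccl12 was also called lower with vehicle, at -1.04 (edgeR adjusted p = 0.000996), although Cgas+/+ vehicle replicate 2 at 3.42 CPM fell among the Cgas-/- libraries. The difference dropped under the size limit without Cgas+/+ vehicle replicate 1 (-0.70), Cgas-/- vehicle replicate 1 (-0.95) or Cgas-/- vehicle replicate 3 (-0.99). Ccl4 differed by -0.83 (edgeR adjusted p = 3.70e-06), below the size limit, and by -1.02 without Cgas+/+ vehicle replicate 2. Ccl3 differed by 0.18 (95% interval -0.03 to 0.38) and Ccl9 by -0.13 (95% interval -0.26 to 0.01), with overlapping groups.

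Under treatment, 6 ligands were lower in Cgas-/- cells and Ccl6 was higher, both with tau, where 2.98% of genes were called higher and 7.41% lower, and with HT-DNA, where the shares were 6.31% and 11.8%. Ccl6 differed by 3.02 with tau and 3.06 with HT-DNA on the log2 scale (edgeR adjusted p = 7.18e-24 and 7.81e-25). Ccl2 averaged 15.6 against 72.4 CPM with tau and 7.35 against 220.1 CPM with HT-DNA, a ratio that grew from 4.64 to 30.0. Ccl12 averaged 8.84 against 33.7 CPM with tau and 3.20 against 92.2 CPM with HT-DNA. For Ccl5 the means were 29.7 against 122 CPM with tau, 4.10 times lower, and 0.781 against 47.5 CPM with HT-DNA, 60.8 times lower. Ccl3 and Ccl4 differed by -1.22 and -2.07 with tau and by -1.64 and -2.98 with HT-DNA, and Ccl7 by -3.38 and -5.49. Ccl9 differed by -0.54 with tau and -0.41 with HT-DNA (edgeR adjusted p = 6.40e-08 and 5.14e-06), both below the size limit.

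Together the 8 ligands took 0.0585% of counts in Cgas+/+ cells with vehicle, 0.114% with tau and 0.134% with HT-DNA, and 0.196%, 0.189% and 0.191% in Cgas-/- cells, most of whose ligand reads were of Ccl6. Marker genes of cells moved with genotype too. The summed level of the 6 microglia and macrophage markers was 4285 to 4361 CPM in Cgas+/+ and 2713 to 2768 CPM in Cgas-/- vehicle libraries. The 4 endothelial markers summed to 87.2 to 98.3 CPM in Cgas+/+ cells with vehicle, 99.96 to 124.5 CPM with tau and 276 to 279 CPM with HT-DNA, and to 20.6 to 28.3 CPM in Cgas-/- cells. The 4 fibroblast markers summed to 2.48 to 4.16 CPM in Cgas+/+ and 0.0521 to 0.220 CPM in Cgas-/- vehicle libraries, and the 7 astrocyte markers to 5.02 to 14.6 CPM in Cgas+/+ and 1.25 to 2.65 CPM in Cgas-/- cells over all treatments. These sums can rest on few genes. In Cgas-/- vehicle libraries 1 of the 4 endothelial and 0 of the 4 fibroblast markers exceeded 3 counts. Of 6 astrocyte markers tested with vehicle, 2 were called lower in Cgas-/- cells and 1 higher. The part of these marker differences in the ligand levels was not tested. Monocyte and T-cell markers summed to at most 0.614 and 0.665 CPM in any microglial library. In bulk samples, fewer cells of a type and less RNA per cell cannot be told apart.

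The order of the 6 groups differed between ligands. For Ccl2 and Ccl12 it ran from Cgas+/+ with HT-DNA through Cgas+/+ with tau to Cgas-/- with tau, and in both genes the last of these overlapped Cgas+/+ with vehicle. For Ccl4 and Ccl7 the Cgas+/+ vehicle group came after the treated Cgas+/+ groups, and the 4 lowest groups overlapped from neighbour to neighbour. For Ccl5 the order was Cgas+/+ with tau, Cgas+/+ with HT-DNA, Cgas-/- with tau, Cgas+/+ with vehicle, then the other 2 Cgas-/- groups, and only these last 2 overlapped as neighbours. For Ccl3 both treated Cgas+/+ groups stood above the rest, and the lowest group was Cgas+/+ with vehicle, which overlapped Cgas-/- with vehicle. For Ccl9 the highest group was Cgas+/+ with tau, followed by Cgas+/+ with HT-DNA and Cgas-/- with tau, which overlapped. For Ccl6 all Cgas-/- groups stood above all Cgas+/+ groups, which overlapped one another.

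Across the 18 libraries, which fall into 6 groups that share treatments, the ligands with the most similar patterns were Ccl2 and Ccl12 (Pearson r of log2 CPM 0.994). Ccl7 was most like Ccl2 (r = 0.964), as was Ccl4 (r = 0.965), and Ccl3 was most like Ccl4 (r = 0.939). Ccl5 was most like Ccl7 (r = 0.825), and Ccl9 was most like Ccl5 (r = 0.817). Ccl6 had negative values with all 7 others, from -0.541 with Ccl3 to -0.794 with Ccl7. Outside the 8 ligands, among 8215 genes at a mean of at least 10 CPM, the 3 most similar genes were March5, Fmnl2 and Acvr1 for Ccl2, Fam208b, Nt5c3 and Pim1 for Ccl3, and Rab21, Mmp13 and Prpf4 for Ccl4. They were Diaph2, Agrn and Slc44a1 for Ccl5, Bri3bp, Fkbp11 and Tpi1 for Ccl6, and Ssfa2, Myd88 and Vcpip1 for Ccl7. For Ccl9 they were Nfe2l2, Slc31a2 and Icam1, and for Ccl12 they were Cd47, Cd274 and Map2k1. The highest r lay between 0.980 (Fam208b with Ccl3) and 0.994 (Cd47 with Ccl12), except for Ccl9, for which it was 0.946 (Nfe2l2).

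Of 13 other CC ligands, 3 passed the filter in microglia, and the only call was of Ccl27a, known as a skin chemokine, with 1.91 CPM in Cgas-/- against 0.797 CPM in Cgas+/+ cells with HT-DNA (log2 difference 1.25, edgeR adjusted p = 0.00197). Of 13 CC receptor genes 5 were tested in microglia. With vehicle 1 was higher in Cgas-/- cells and 1 was lower, and against vehicle, tau gave 1 higher call in each genotype, while HT-DNA gave 1 higher and 1 lower call in Cgas+/+ cells and 0 in Cgas-/- cells. Ccr1, a receptor of Ccl3, Ccl5, Ccl6 and Ccl9, averaged 111, 110.2 and 201 CPM in Cgas+/+ cells with vehicle, tau and HT-DNA, and 324, 269 and 328 CPM in Cgas-/- cells. It was thus higher in every Cgas-/- library, by 1.54 with vehicle, 1.29 with tau and 0.71 with HT-DNA on the log2 scale (edgeR adjusted p = 7.66e-21, 5.47e-19 and 2.29e-14), of which the last was below the size limit.

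Ccr1, higher in Cgas-/- cells as Ccl6 was, was not called under tau in either genotype, with log2 fold changes of -0.01 in Cgas+/+ and -0.27 in Cgas-/- cells (edgeR adjusted p = 0.871 and 1.94e-05), the latter below the size limit. Its tau interaction was called at -0.25 (edgeR adjusted p = 0.0103). Its log2 fold change under HT-DNA was 0.85 in Cgas+/+ cells, below the size limit, and its HT-DNA interaction was -0.83 (edgeR adjusted p = 1.53e-11). Ccrl2, an atypical receptor that binds chemerin, had the pattern of the induced ligands, with means of 26.6, 75.7 and 102.5 CPM in Cgas+/+ and 10.5, 27.4 and 11.03 CPM in Cgas-/- cells. It rose under tau in both genotypes, by 1.51 and 1.37 on the log2 scale (edgeR adjusted p = 3.42e-11 and 1.68e-08), with an interaction of -0.14 (edgeR adjusted p = 0.750). Under HT-DNA it rose by 1.95 in Cgas+/+ cells and differed by 0.07 in Cgas-/- cells, with an interaction of -1.88 (edgeR adjusted p = 1.87e-08). Ccr9 and Ccr10 were called in 2 and 3 comparisons at a mean of fewer than 20 counts in their highest group.

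**Figure D4:**
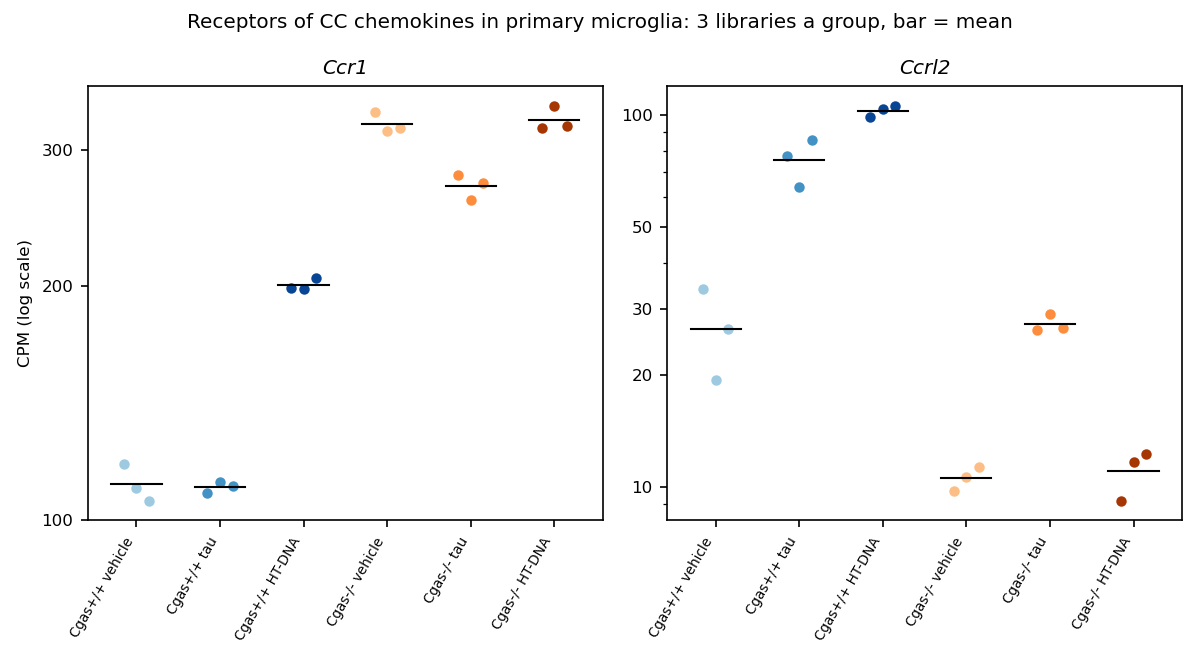
Levels of Ccr1 and Ccrl2 in 18 microglial libraries, in CPM on a log axis. Points are libraries and bars are group means (n = 3 per group); Ccr1 is higher in every Cgas-/- library than in every library of the same treatment in Cgas+/+ cells, and Ccrl2 is lower.

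In hippocampi the ligands were rare, and 7 of the 8 (all but Ccl7) were above every Ntg mouse in 4 or 5 of the 6 P301S mice. The share of all genes with as many P301S mice above every Ntg mouse was not computed, so this count has no background. The 8 ligands took 0.000443% of counts in Ntg and 0.00282% in P301S mice on average. Only Ccl6, Ccl9 and Ccl12 passed the filter on low counts, and 2 of these 3 were called higher (adjusted p under 0.05 and log2 fold change beyond 0.5), where 1.32% of 16453 genes were called higher and 0.0365% lower. A gene passes this filter through the libraries in which it is high, so these 3 do not stand for all 8, and all 8 were also compared by an exact two-sided permutation test over the 13 mice on log2 CPM, which can reach 0.000583 at the smallest.

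Ccl6 had 1.16 to 2.81 CPM in Ntg mice (median 1.74), and 17.9, 28.2, 2.14, 3.0003, 22.2 and 6.71 CPM in P301S mice 29, 36, 43, 63, 65 and 77. Mouse 43 fell within the Ntg range, mouse 63 was just above it, and the other 4 were well above. The log2 fold change was 2.92 ± 0.53 (SE; edgeR adjusted p = 0.0295, exact permutation p = 0.00117). Ccl12 had 0.148 to 0.506 CPM in Ntg mice (median 0.265), and 2.91, 3.12, 0.245, 0.429, 3.52 and 1.40 CPM in the same P301S mice. Here mice 43 and 63 were within the Ntg range, and the log2 fold change was 2.63 ± 0.55 (edgeR adjusted p = 0.0327, exact permutation p = 0.00932). Ccl9 had 0.952 to 2.98 CPM in Ntg mice (median 2.21), and 7.60, 10.3, 0.666, 1.85, 9.78 and 4.82 CPM in P301S mice. Its log2 fold change of 1.56 ± 0.49 did not pass (edgeR adjusted p = 0.121, exact permutation p = 0.101), with mouse 43 below every Ntg mouse, but passed with DESeq2 (adjusted p = 0.0249), which called all 3 tested ligands and 531 of 16453 genes higher.

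**Figure D5:**
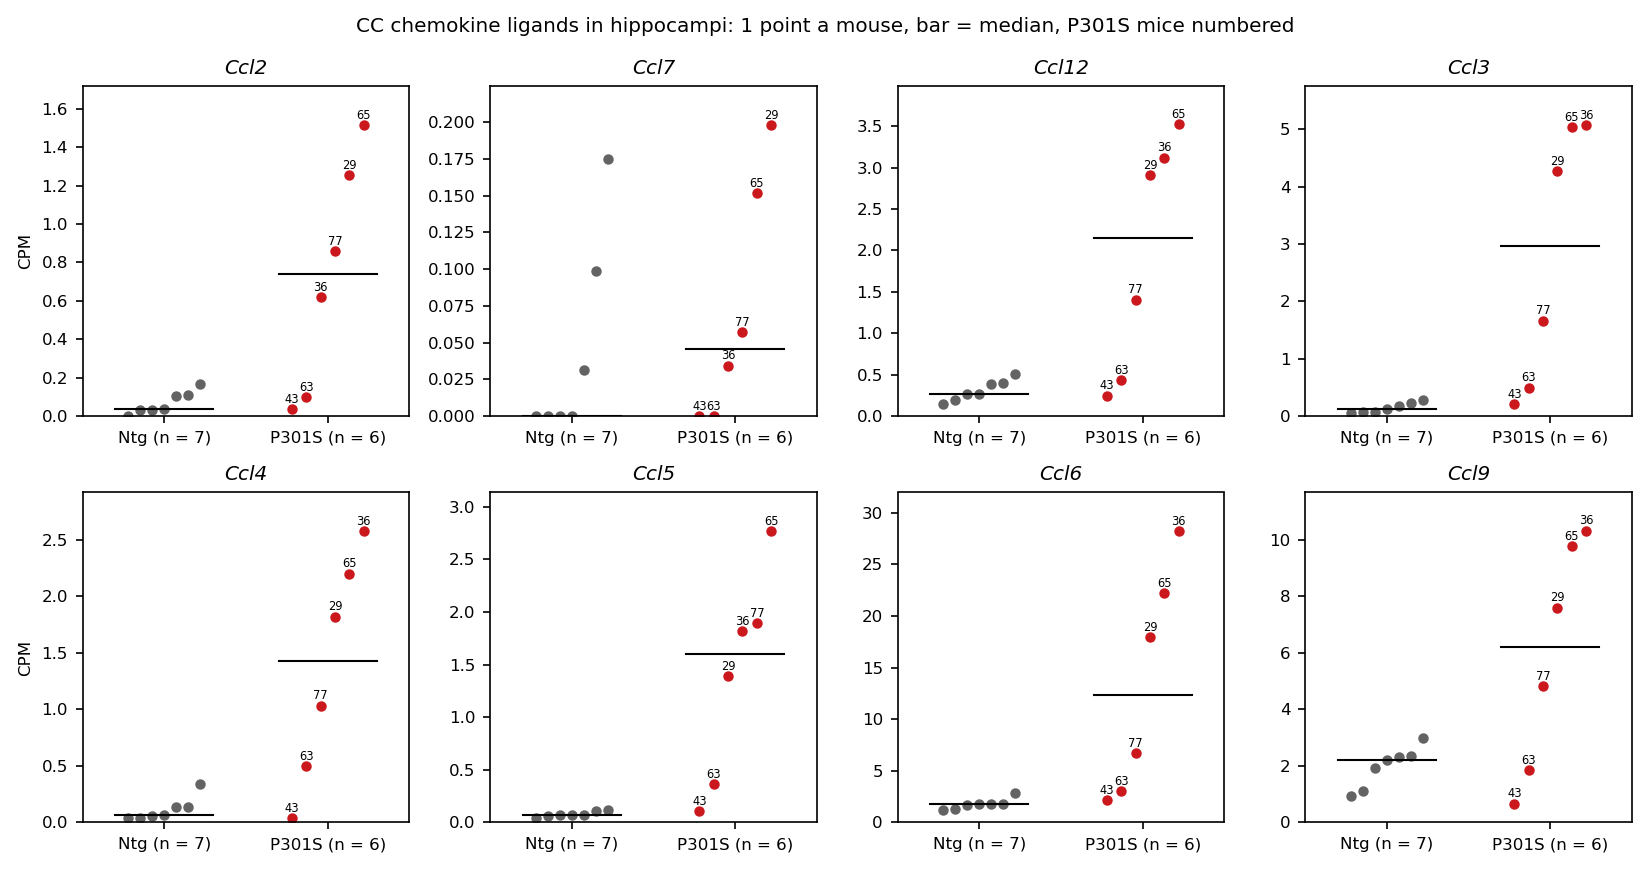
Levels of the 8 ligands in hippocampi of 7 Ntg and 6 P301S mice, in CPM, with 1 panel per gene. Points are mice and bars are group medians; P301S mouse 29 lies above every Ntg mouse for all 8 ligands, mice 36, 65 and 77 for all but Ccl7, and P301S mouse 43 lies above all Ntg mice for none.

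Ccl3 had 0.0738, 0.0595, 0.165, 0.124, 0.281, 0.217 and 0.0758 CPM in Ntg mice, all at 2 to 8 counts, and 4.26, 5.08, 0.210, 0.495, 5.04 and 1.66 CPM in P301S mice 29, 36, 43, 63, 65 and 77. Every P301S mouse but mouse 43 was above all Ntg mice (log2 difference 3.17, exact permutation p = 0.00175). Ccl4 ranged from 0.0362 to 0.341 CPM in Ntg mice and had a median of 1.42 CPM in P301S mice (log2 difference 2.54, exact permutation p = 0.0105). Ccl5 ranged from 0.0379 to 0.119 CPM in Ntg mice, and was at 1.39, 1.82, 0.105, 0.363, 2.77 and 1.89 CPM in P301S mice (log2 difference 2.85, exact permutation p = 0.00175). For both, the same 5 P301S mice were above every Ntg mouse. Ccl2 ranged from 0 to 0.165 CPM in Ntg mice and was at 1.26, 0.617, 0.0351, 0.0989, 1.52 and 0.860 CPM in P301S mice (log2 difference 2.09, exact permutation p = 0.0146). Ccl7, at 0 to 6 counts in all mice, overlapped between the groups (log2 difference 0.33, exact permutation p = 0.460).

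Thus 6 of the 8 ligands had an exact permutation p under 0.05 and were higher in P301S mice, in tests that were not adjusted, against 6.11% of the 30055 genes with reads. With no filter on low counts, edgeR over 30055 genes called the same 6, where 1.02% of those genes were called higher and 0.0499% lower, with adjusted p of 0.00523 for Ccl5, 0.00810 for Ccl3, 0.0114 for Ccl6, 0.0170 for Ccl4, 0.0216 for Ccl12 and 0.0320 for Ccl2, against 0.130 for Ccl9 and 0.799 for Ccl7. Within P301S mice the ligands were high in the same animals. Mouse 29 was above every Ntg mouse for 8 ligands, mice 36, 65 and 77 for 7, mouse 63 for 4 and mouse 43 for 0. For none of these mice was the share of all genes above every Ntg mouse computed. Mouse 43 had 970.2 CPM of Mapt, within the range of the other P301S mice (858 to 1125 CPM). Without it, edgeR called all 3 tested ligands, Ccl6 at 3.14, Ccl12 at 2.86 and Ccl9 at 1.79 (edgeR adjusted p = 0.00149, 0.00267 and 0.0138), where 3.66% of genes were called higher, and 7 of 8 ligands had an exact permutation p under 0.05 and were higher, against 7.45% of 29893 genes.

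Some lists of cell type markers varied among P301S mice with the ligands, and others did not rise. The 6 microglia and macrophage markers summed to 806, 735, 245, 255, 790.2 and 413 CPM in P301S mice 29, 36, 43, 63, 65 and 77, against 224 to 277 CPM in Ntg mice, so that mice 43 and 63 were in the Ntg range. The 7 homeostatic markers summed to 450.4, 434, 199.5, 241, 478 and 349 CPM, against 224 to 265 CPM in Ntg mice. The 7 astrocyte markers summed to 3828 to 7552 CPM in P301S and 3750.3 to 4523 CPM in Ntg mice. The 6 T-cell markers summed to 0.725 to 3.87 CPM against 0.493 to 1.49 CPM, and the 4 monocyte markers to 0.0701 to 0.860 CPM against 0.0297 to 0.281 CPM. The 4 NK-cell markers summed to 0.529, 0.446, 0.0351, 0.264, 0.493 and 0.745 CPM in P301S mice 29, 36, 43, 63, 65 and 77, against 0 to 0.152 CPM in Ntg mice. The same 5 mice were thus above every Ntg mouse for these markers and for Ccl3, Ccl4, Ccl5 and Ccl6. The share of all genes with this pattern was not computed. The NK-cell sums rest on few counts. Of the 4 NK-cell markers 0 passed the filter on low counts, and 0 exceeded 3 counts in any Ntg mouse. Of the monocyte markers 0 of 4 passed the filter, and of the T-cell markers 1 of 6. Other lists had lower median sums in P301S than in Ntg mice, with overlap. These were border macrophages (2.91 against 3.40 CPM), neutrophils (0.402 against 0.434), fibroblasts (38.4 against 95.1) and endothelial cells (109 against 119). Choroid plexus (602 against 2005) and blood (1.01 against 1.66) were lower too. Neurons were at 6983 against 6976 CPM and oligodendrocytes at 5364 against 3789 CPM. The part of any of these marker lists in the ligand levels was not tested beyond the covariate that follows. With the mean of the homeostatic markers as a covariate, Ccl6 was at 1.84 (edgeR adjusted p = 0.0496), Ccl12 at 1.48 (edgeR adjusted p = 0.117) and Ccl9 at 0.50 (edgeR adjusted p = 0.716). With sex as a covariate, Ccl6 passed at 2.83 (edgeR adjusted p = 0.0453) and Ccl12 did not at 2.59 (edgeR adjusted p = 0.0503).

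The calls depended on single mice. Leaving out 1 mouse kept Ccl6 between 2.55 and 3.14 with edgeR adjusted p from 0.00149 to 0.0795, and its call was lost without Ntg mouse 35, 46, 61, 62, 68 or 71 or P301S mouse 29, 36 or 65. Ccl12 was between 2.36 and 2.86 with edgeR adjusted p from 0.00267 to 0.0949, and lost its call without any 1 of the 7 Ntg mice or P301S mouse 29, 36 or 65. By the exact permutation test 6 or 7 ligands were higher without each mouse, against 4.89% to 7.45% of genes with reads. An interaction of sex with the P301S transgene was found for 0 of the 3 tested ligands and 0.00% of all genes by edgeR, with 0 ligands at an unadjusted p under 0.05 and 0 called by DESeq2. The interactions were -1.17 for Ccl6, -0.68 for Ccl9 and -0.17 for Ccl12, with standard errors of 1.04, 1.03 and 1.19. Of the other CC ligands 4 and of the receptors 4 were tested in hippocampi, and 0 were called.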

How the data were processed

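Per the labels, libraries were prepared with the QuantSeq 3′ kit (FWD), which reads transcript ends. The study's methods do not name this kit. The authors deposited raw read counts per Ensembl gene in 2 tables without normalization, and per the labels the submitters' processing notes name the GRCm38 build and the tools edgeR and limma. The aligner, counting tool, annotation and strand setting are not given in the sources used here. All 31 columns were matched to samples by name.

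Counts were tested with edgeR 4.0.16 in R 4.3.3 (TMM scaling, filterByExpr, quasi-likelihood F test, 1 fit per experiment over all its groups), and p-values were adjusted by the Benjamini-Hochberg method over 13675 genes in microglia and 16453 in hippocampi. Calls needed an adjusted p below 0.05 together with a log2 change past 1 (microglia) or 0.5 (hippocampi), and interactions the adjusted p alone. Standard errors in edgeR are the absolute log2 change divided by the square root of its F statistic, which is imprecise for changes near 0. The exact permutation test, run in R, enumerated 1716 splits on log2 CPM with a prior count of 2, and was also run on every gene with reads for the background share. Counting intervals of the Ccl7 ratios are exact binomial intervals (scipy 1.17.1). Likeness used Pearson's r of the same log2 CPM. All replicate pairs differed beyond sampling noise (chi-square per degree of freedom at least 2.32). Cgas-/- HT-DNA replicate 1 stood apart, at 22.4 and 28.0 against replicates 2 and 3, which were at 4.16 with each other. The other microglial pairs reached 10.7, and hippocampal pairs up to 125. Under HT-DNA in Cgas-/- cells 0 ligands were called without each library in turn.

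Named genes were the 8 ligands in every comparison, related ligands or receptors called at least once with a mean of at least 20 counts in their highest group, the 3 most similar genes and most similar ligand for each member, and Cgas and Mapt. A gene of the receptor list is not reported here. The members and lists were chosen with earlier results of these data known. Alternatives were DESeq2 1.42.0, RLE scaling, no filter, no minimum fold change, a prior count of 0.5, only the compared groups, a replicate block, sex or homeostatic markers as covariates, and leaving out each library. Positions came from the GENCODE annotation of GRCm38. The tests were tried on simulated data with 200 changed genes.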

Additional observations from a re-analysis of the deposited data

Results flagged for a closer look

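Among 16 groups of hippocampi (8 ligands in 2 groups of mice), 2 held a value far from the rest. Ccl4 in Ntg mouse 71 was at 0.341 CPM, the highest of the 7 Ntg mice, with a gap to the next of 0.659 of the whole range. Ccl6 in Ntg mouse 62 was at 2.81 CPM, with a gap of 0.608 of the range. Chance alone marks a small share of such groups, about 1 in 20.

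The response to tau differed between Cgas genotypes for 4 ligands by the edgeR interaction test. Of all genes tested, 3.61% had a called positive interaction with tau and 3.31% a negative one. The difference in log2 response, Cgas-/- minus Cgas+/+, was -1.40 for Ccl3 (edgeR adjusted p = 5.71e-08), -1.24 for Ccl4 (edgeR adjusted p = 2.36e-05), -0.41 for Ccl9 (edgeR adjusted p = 0.00512) and 2.87 for Ccl5 (edgeR adjusted p = 1.32e-06). The response to HT-DNA differed for 5 ligands, with -3.84 for Ccl12 (edgeR adjusted p = 8.62e-10), -3.54 for Ccl2 (edgeR adjusted p = 1.66e-09), -2.16 for Ccl4 (edgeR adjusted p = 7.61e-11), -1.82 for Ccl3 (edgeR adjusted p = 2.71e-11) and -0.28 for Ccl9 (edgeR adjusted p = 0.0220). For HT-DNA, 17.4% of all genes had a called positive interaction and 16.6% a negative one. The HT-DNA call of Ccl9 held in 7 of 12 fits without 1 library, with edgeR adjusted p up to 0.0928. The tau interaction of Ccl5 rests on 4 to 20 counts in the Cgas-/- vehicle libraries. Since genotype and culture preparation coincide, they cannot be told apart.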

How the results depend on the processing

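Of the results for single ligands, 703 kept their direction and call when 1 library was left out, 27 lost a call, 11 gained one and 17 changed sign, and under other settings 489 kept both, 2 lost a call, 14 gained one and 1 changed sign. P301S against Ntg was the least stable, with 1 ligand called with sex as a covariate, 1 with the homeostatic markers as a covariate, and 0 to 3 without each mouse in turn.

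The estimates that changed sign lay between -0.17 and 0.11 in the main analysis, and the ranges of some were wide. Under DESeq2 the Ccl7 interaction with tau was 0.0086. Without each library in turn it ranged from -0.47 to 0.38, Ccl6 under tau in Cgas+/+ cells from -0.016 to 0.12, Ccl6 under HT-DNA in Cgas-/- cells from -0.079 to 0.013, Ccl9 there from -0.012 to 0.11, Ccl12 there from -0.12 to 0.29, and the sex interaction of Ccl12 from -0.93 to 0.28. The cause was not tested.

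Over all genes, P301S against Ntg gave 217 higher and 6 lower calls with edgeR, 531 and 52 with DESeq2, 123 and 3 with sex and 56 and 1 with the homeostatic markers as a covariate. The sex interaction gave 0 calls with edgeR and 1092 with DESeq2. HT-DNA in Cgas-/- cells gave 2 and 1, and 20 and 5 with no filter. Ccl7 and Ccl5 in Cgas-/- cells are limited by counts.

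The replicate numbers do not pair the microglial libraries. Deviations of same-numbered libraries correlated between -0.0850 and 0.0823 over 45 pairs, and 3 of 18 libraries were most like one of their own number. With the replicate block, tau gave 393 higher and 69 lower calls in Cgas+/+ cells against 395 and 72 without it, 6 ligands were called as before, and no other count of ligands changed. Mice share no replicate numbers between groups.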
